A study of Mus musculus with 17 samples.

Results

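Cxcl1, Cxcl2, Cxcl3 and Cxcl5, the CXC chemokines that attract neutrophils, were followed in the distant tumors of a mouse cryoablation experiment. They were 4 of the 21931 genes in the table, found there by symbol, and they were chosen by their measured fold between the groups, because Cxcl1 and Cxcl2 had passed a fold-change threshold on the strength of a single tumor. MC38, a mouse colon cancer line without an engineered change (genotype WT), was grown under the skin on both sides of C57BL/6J mice aged 6 to 8 weeks at implantation. In the cryoablation group (Cryo, n = 8) the tumor of one side was frozen on day 7 in 2 freezing cycles, and in the control group (Con, n = 9) it was not. The tumor of the other side, which had not been frozen, was taken 5 days later and its mRNA was sequenced, so that in both groups the sample was an untreated tumor. Groups follow the labels, while the text of the study gives the sizes of the groups the other way round. The labels do not tie tumors to mice, and p values therefore measure the spread between these tumors. In bulk tissue, fewer cells of a type and less RNA per cell cannot be told apart.

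CXC chemokines are small secreted proteins that form gradients along which white blood cells move. The 4 members belong to the branch with a Glu-Leu-Arg motif in front of the first cysteines, which binds the receptor Cxcr2 on neutrophils. Macrophages, fibroblasts, endothelium, epithelium and tumor cells make them within hours of a signal from interleukin-1, interleukin-17, TNF or bacterial products. The signal acts through the transcription factor NF-kB at the promoter and through proteins that protect or destroy the short-lived mRNA. In tumors these chemokines are known for drawing in neutrophils and related myeloid cells.

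All 4 genes lie on the plus strand of chromosome 5. The table places Cxcl5 (ENSMUSG00000029371) at 90907219 to 90909483, Cxcl3 (ENSMUSG00000029379) at 90933962 to 90937459, Cxcl1 (ENSMUSG00000029380) at 91039100 to 91040974 and Cxcl2 (ENSMUSG00000058427) at 91051730 to 91053797. The build of these positions is not named here, because they equal those of the GRCm38 annotation for only 512 of 21827 shared genes. The sequences below have GRCm38 positions, which differ from those of the table. The genes are close relatives, and how reads matching more than one of them were counted is not given in the sources used here.

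The promoters of Cxcl1, Cxcl2 and Cxcl3 are shown because each holds the same NF-kB site, GGGAATTTCC, within 100 bases of its start. The sequences are the 130 bases before the RefSeq start (GRCm38.p6, plus strand), at chr5:90891115-90891244 for Cxcl1, chr5:90903769-90903898 for Cxcl2 and chr5:90785971-90786100 for Cxcl3, with the site in capitals.
Cxcl1: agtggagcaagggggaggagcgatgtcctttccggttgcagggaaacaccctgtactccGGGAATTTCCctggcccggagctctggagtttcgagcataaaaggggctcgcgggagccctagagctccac
Cxcl2: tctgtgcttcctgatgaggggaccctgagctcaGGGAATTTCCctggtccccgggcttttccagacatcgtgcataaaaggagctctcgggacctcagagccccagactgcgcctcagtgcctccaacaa
Cxcl3: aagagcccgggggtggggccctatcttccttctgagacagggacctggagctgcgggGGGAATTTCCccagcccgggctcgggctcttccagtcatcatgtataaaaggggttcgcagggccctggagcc
The site runs from 71 to 62 bases before the start of Cxcl1, from 97 to 88 before that of Cxcl2 and from 73 to 64 before that of Cxcl3. These letters, searched on both strands from 250 bases before to 50 after the start, were in 29 of 32851 RefSeq promoters (0.0883%). They were in 3 of the 3 member promoters given, in 1 of 21 promoters of other NF-kB target genes (Nfkbia, which encodes an NF-kB inhibitor) and in 0 of 24 promoters of neutrophil genes. The wider NF-kB consensus, which includes these letters, was in 8.46% of all promoters and in 11 of the 21 promoters of NF-kB target genes (52.4%). Cxcl5 had no entry. The motif was picked with the promoters in view, and a match of letters is a description, not a site where a factor was bound.

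The 3' untranslated regions are shown because chemokine mRNAs carry AU-rich elements, at which proteins such as tristetraprolin start the decay of the message. The element is ATTTA in the DNA letters below. For each member the window of 30 bases with the most copies is given (GENCODE M21, GRCm38, plus strand), at chr5:90892602-90892631 for Cxcl1, chr5:90905327-90905356 for Cxcl2, chr5:90787629-90787658 for Cxcl3 and chr5:90760634-90760663 for Cxcl5, with the copies in capitals.
Cxcl1: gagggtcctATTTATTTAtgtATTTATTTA
Cxcl2: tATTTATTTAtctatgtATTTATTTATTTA
Cxcl3: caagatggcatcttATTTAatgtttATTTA
Cxcl5: agcttcctgctcatctcacaagtgtATTTA
Overlapping copies were counted, which gave 4 in the window of Cxcl1, 5 in that of Cxcl2, 2 in that of Cxcl3 and 1 in that of Cxcl5. The whole 3' untranslated region held 7 copies in 595 bases in Cxcl1, 11 in 1497 bases in Cxcl2, 5 in 648 bases in Cxcl3 and 5 in 1114 bases in Cxcl5. That is 11.8, 7.35, 7.72 and 4.49 copies per kilobase, against a median of 1.35 over 19795 genes. Cxcl5 thus had the fewest copies per kilobase of the 4, at the 90.1st percentile of genes, and Cxcl1 the most, at the 99.5th.

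Total counts ranged from 13524899 to 17898672 per tumor, with a median of 15792272. Levels below are CPM, a count scaled to the tumor's total, after TMM normalization, which removes differences in total count and composition, and a count of 3 corresponded to 0.152 to 0.289 CPM. Of the 21931 genes, 13005 had enough counts to be tested, all 4 members among them. Replicate 4 of the control group was the highest tumor by more than 1 on the log2 scale in 115 genes, replicate 7 of the cryoablation group in 12 (0.0923% of those tested) and replicate 4 of the cryoablation group in 9, against at most 3 in any other tumor. Counting genes without regard to the gap, replicate 5 of the cryoablation group was highest in 21.7% of genes and replicate 7 in 16.8%. Tumors are called Con 4, Cryo 7 and so on below, and results that rest on Con 4 or Cryo 7 are also given without them. As a check of the tissue label, the summed markers of colon epithelium ranged from 16.8 to 96.8 CPM in the control group and from 10.4 to 215 in the cryoablation group. Cdx2, a transcription factor that defines gut epithelium, had 0 counts in all 17 tumors.

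Cxcl1, the member with the highest counts, was at most 13.6 CPM in 16 of the 17 tumors and was far above that in Cryo 7. In the control group the lowest, median and highest counts were 54, 122 and 269, which is 4.03, 7.05 and 13.6 CPM. In the cryoablation group the lowest and median levels were 4.73 and 6.99 CPM, and the highest was 358.5 CPM, from 5949 reads in Cryo 7. The other 7 cryoablation tumors ranged from 4.73 to 8.00 CPM and lay within the range of the controls. Cryo 7 was 51.5-fold above the median of the other 16 tumors and 26.3-fold above the next tumor. This gap, 4.70 on the log2 scale, was the widest between the highest and the next tumor of any of the 13005 genes.

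Cxcl2, which tissue macrophages and neutrophils themselves also make in quantity, had the same single high tumor. Its lowest, median and highest levels were 1.12, 2.66 and 7.89 CPM in the control group and 0.835, 3.002 and 76.4 CPM in the cryoablation group, in counts 15, 46 and 142 against 14, 42.5 and 1267. The highest of the other 7 cryoablation tumors was at 3.80 CPM, below the highest control. Cryo 7 was 29.3-fold above the median of the others and 9.67-fold above the next tumor, the 4th widest gap of the genes tested.

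Cxcl3, a close relative of Cxcl1 and Cxcl2 in sequence, again had its highest level in Cryo 7. The control tumors had 0.777, 1.53 and 8.74 CPM at the lowest, median and highest, and the cryoablation tumors 0.835, 2.14 and 45.3 CPM, in counts 13, 28 and 157 against 14, 32 and 751. Apart from Cryo 7, the cryoablation tumors reached 5.15 CPM, again inside the control range. Cryo 7 was 28.2-fold above the median of the others and 5.18-fold above the next tumor, the 7th widest gap.

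Cxcl5, which is made mainly by epithelium and stroma, behaved differently in Cryo 7. Its lowest, median and highest levels were 0.373, 2.31 and 25.4 CPM in the control group, from 5, 40 and 392 counts. In the cryoablation group they were 0.119, 2.33 and 7.71 CPM, from 2, 37 and 128 counts, and the lowest of these lies under the level of 3 counts. Cryo 7 had the highest Cxcl5 of its group, 3.61-fold above the median of the others, but Con 4, Con 3 and Con 7 lay above it at 25.4, 15.4 and 12.8 CPM. It had 0.304 times the level of Con 4. The plot of the 4 genes by tumor shows that Cryo 7 left the range of the other tumors for 3 members and stayed inside it for Cxcl5.

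**Figure D1:**
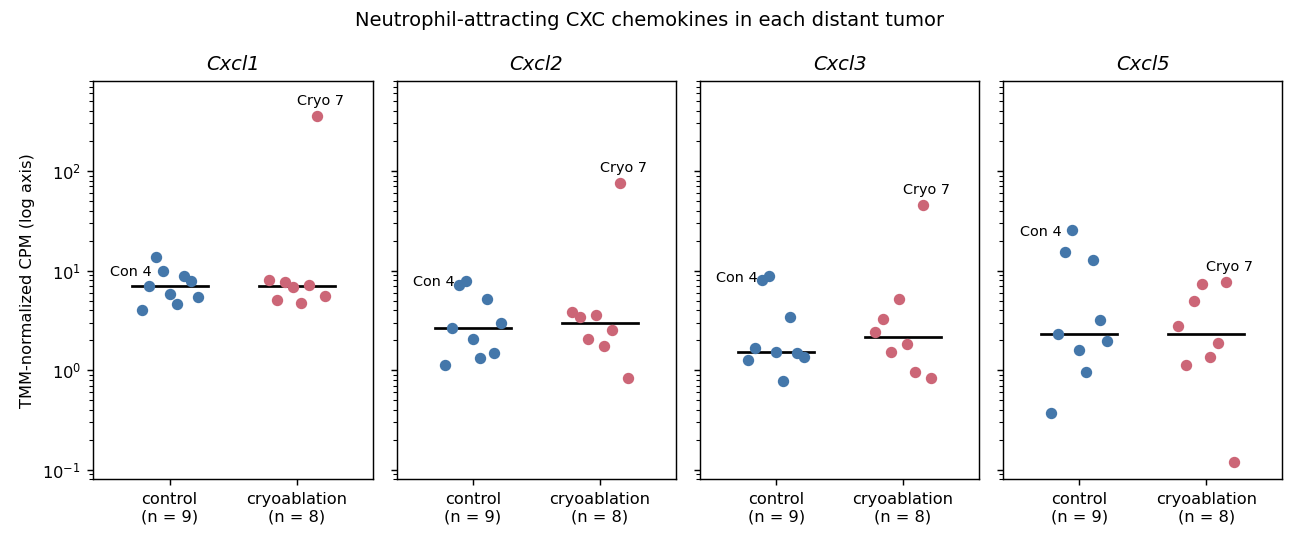
TMM-normalized CPM (log axis) of Cxcl1, Cxcl2, Cxcl3 and Cxcl5 in each distant tumor of the control (blue, n = 9) and cryoablation (red, n = 8) groups. Each point is 1 tumor and each bar the group median. Cryo 7 lies at 358.5, 76.4 and 45.3 CPM for Cxcl1, Cxcl2 and Cxcl3, above every other tumor, and at 7.71 CPM for Cxcl5, below 3 control tumors.

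The question asked of the groups was whether freezing one tumor changed the other. By edgeR, 2 of the 4 members, Cxcl1 and Cxcl2, passed the threshold of a log2 fold change beyond 1 in either direction together with an unadjusted p below 0.05, which 64 of the 13005 genes passed (0.492%; 0.354% higher and 0.138% lower in the cryoablation group). The members were chosen for this, so the count and the values are a description. The log2 fold change of cryoablation over control was 2.76 (SE 0.89) for Cxcl1 and 1.74 (SE 0.80) for Cxcl2. Cxcl3 had 1.29 (SE 0.77) and Cxcl5 had -1.06 (SE 0.75), and neither passed. The median over all genes tested was -0.01. No gene of the 13005 had an adjusted p under 0.05 by edgeR's quasi-likelihood test, DESeq2 or limma, and 639 (4.91%), 881 and 1312 had an unadjusted p under 0.05.

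The positive folds rested on Cryo 7. Without it the log2 fold change was -0.22 for Cxcl1, -0.47 for Cxcl2, -0.48 for Cxcl3 and -1.36 for Cxcl5, and none of the 4 passed the threshold. When Con 1, 2, 5, 6, 8 or 9 was left out the p of Cxcl2 missed the threshold, while its fold stayed at 1.61 to 1.69. In CPM, the other 7 cryoablation tumors had 6.43 ± 1.31 (SD) of Cxcl1 against 7.46 ± 3.02 in the 9 controls. For Cxcl2 the means were 2.58 ± 1.10 and 3.54 ± 2.58, for Cxcl3 2.29 ± 1.52 and 3.13 ± 3.05, and for Cxcl5 2.79 ± 2.53 and 7.11 ± 8.75. Each of these differences was smaller than the SD of the controls, which is the spread of single tumors and not a test of the means. With Cryo 7 counted, 4, 4, 5 and 4 of the 8 cryoablation tumors lay above the control median of Cxcl1, Cxcl2, Cxcl3 and Cxcl5. The fold of Cxcl5 depended most on Con 4 and was -0.52 without it. Without both tumors (a setting added once these values were known) the folds were -0.16, -0.24, -0.12 and -0.80 in the same order.

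Methods that handle a deviating count in different ways gave different folds. DESeq2 replaces counts that deviate strongly from their group, and in Cryo 7 it replaced 5949 reads of Cxcl1 by 114, 1267 of Cxcl2 by 48 and 751 of Cxcl3 by 38. With this replacement, its default, the log2 fold change was -0.19 for Cxcl1, -0.43 for Cxcl2, -0.45 for Cxcl3 and -1.05 for Cxcl5. Without it the values were 2.75, 1.73, 1.29 and -1.05, close to those of edgeR. limma voom with quality weights gave 0.29, -0.10, -0.13 and -1.64. Cxcl5 is the member whose sign was negative in every setting tried, and it passed the threshold in none of them.

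**Figure D2:**
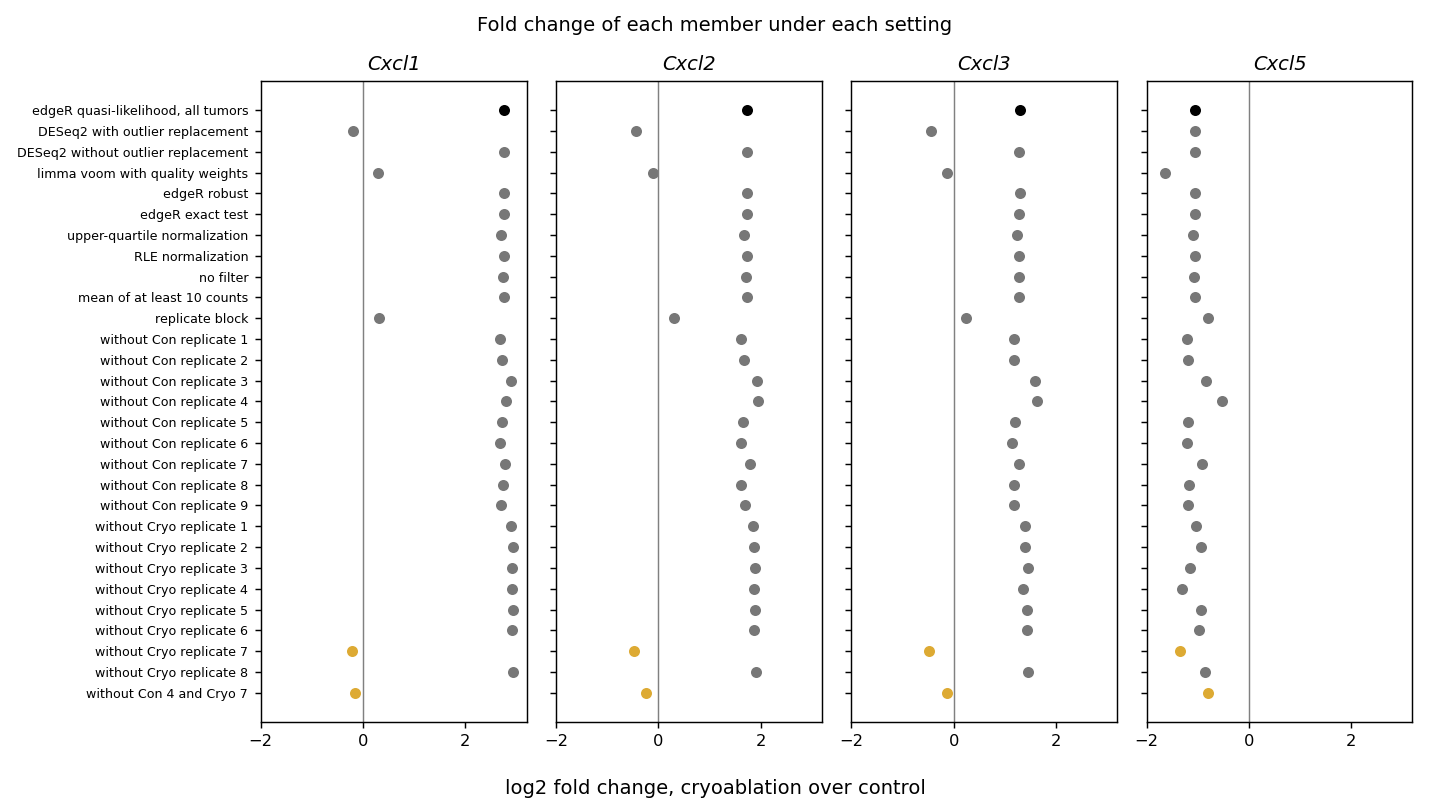
Log2 fold change of cryoablation over control for each member (panels) under the main setting (black), each alternative (grey) and the 2 settings without Cryo 7 (gold). The vertical line marks no change. Cxcl1, Cxcl2 and Cxcl3 lie at 2.76, 1.74 and 1.29 in the main setting and at -0.22, -0.47 and -0.48 without Cryo 7.

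Among the control tumors alone the members varied more than most genes, and Cxcl5 the most of the 4. The SD of log2 CPM over the 9 controls was 0.55 for Cxcl1, 1.01 for Cxcl2, 1.16 for Cxcl3 and 1.90 for Cxcl5, against a median of 0.27 over all genes tested. These are the 86.7th, 98.1st, 98.9th and 99.9th percentiles. From the lowest to the highest control the level rose 3.38-fold for Cxcl1, 7.05-fold for Cxcl2, 11.2-fold for Cxcl3 and 67.9-fold for Cxcl5. Con 3, Con 4 and Con 7 were the 3 highest controls for all 4 members.

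Levels of different genes can be compared only per length, as CPM per kilobase. With the lengths in the table (1875, 2068, 3498 and 1863 bases for Cxcl1, Cxcl2, Cxcl3 and Cxcl5) the control medians were 3.76, 1.29, 0.438 and 1.24 CPM per kilobase. Cxcl1 lay above Cxcl2 and above Cxcl3 in 9 of 9 control tumors, by 1.46 and 2.56 on the log2 scale (adjusted p = 0.0078 each, two-sided exact sign-flip permutation test over the 9 tumors, adjusted over 6 pairs). The smallest unadjusted p this test can give is 0.0039. Cxcl1 was above Cxcl5 in 6 of 9 tumors by 1.08 (adjusted p = 0.0891, the same exact test), and Cxcl2 and Cxcl5 differed by -0.37 (adjusted p = 0.348, exact), so neither pair differed beyond its spread. Cxcl3 was below Cxcl2 in all 9 tumors. That order depended on the length used. With the coding transcripts of GENCODE M21 (953, 1859, 1016 and 1575 bases), an alternative added once these values were known, the medians were 7.40, 1.43, 1.51 and 1.47 CPM per kilobase and Cxcl2 was 0.53 below Cxcl3 (adjusted p = 0.0234, exact). With these lengths Cxcl1 was above each of the other members, by 2.28, 1.75 and 1.82 (adjusted p = 0.0117, 0.0117 and 0.0234, exact). Cxcl1 had the highest median per length on both scales, but on the lengths of the table it did not differ from Cxcl5 beyond the spread, and Con 3, Con 4 and Con 7 had more Cxcl5. The order of the other members was not settled.

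The 4 members moved together between control tumors. Over the 9 controls the rank correlation (Spearman's rho) was 0.97 for Cxcl1 with Cxcl5, 0.92 for Cxcl1 with Cxcl3, 0.90 for Cxcl3 with Cxcl5, 0.88 for Cxcl2 with Cxcl3 and with Cxcl5, and 0.83 for Cxcl1 with Cxcl2. Pearson's r of log2 CPM for these pairs ran from 0.85 to 0.93. The adjusted permutation p values of rho ranged from 0.0021 to 0.0165 over 26 relations tested in the family. Con 3, Con 4 and Con 7 were high for every member. Without Con 4 and Cryo 7, over the other 15 tumors of both groups, rho of the pairs ran from 0.50 to 0.85.

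Over all 17 tumors the ranks kept the relation, and the values did so less where Cxcl5 was concerned. Cxcl2 with Cxcl3 had r = 0.94 and rho = 0.88 (adjusted permutation p = 0.0003 each). Without the 2 tumors farthest from the median of Cxcl2, Cryo 7 and Cryo 8, r was 0.87. Cxcl1 with Cxcl5 had rho = 0.88 (adjusted permutation p = 0.0003) but r = 0.45 (adjusted permutation p = 0.185), and without Con 3 and Cryo 7 r was 0.82. In the plot of member pairs Cryo 7 lies far to the right of the line of the other tumors when Cxcl5 is on the vertical axis, and near the line of the others for Cxcl2 with Cxcl3. Cxcl1 with Cxcl3 had r = 0.84 and rho = 0.65 (adjusted permutation p = 0.0009 and 0.0137). Without Con 3 and Cryo 7 these were 0.55 and 0.50 (adjusted permutation p = 0.0823 and 0.135). Without Cryo 7 alone they were 0.68 and 0.58 (adjusted permutation p = 0.0078 and 0.0369). Without Con 4 and Cryo 7 they were 0.63 and 0.50 (adjusted permutation p = 0.0271 and 0.116). Cxcl1 with Cxcl2 had r = 0.90 and rho = 0.75, and 0.68 and 0.63 without Con 3 and Cryo 7. Within the 8 cryoablation tumors rho ran from 0.29 to 0.83 over the 6 pairs, and no adjusted permutation p of rho was under 0.27.

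**Figure D3:**
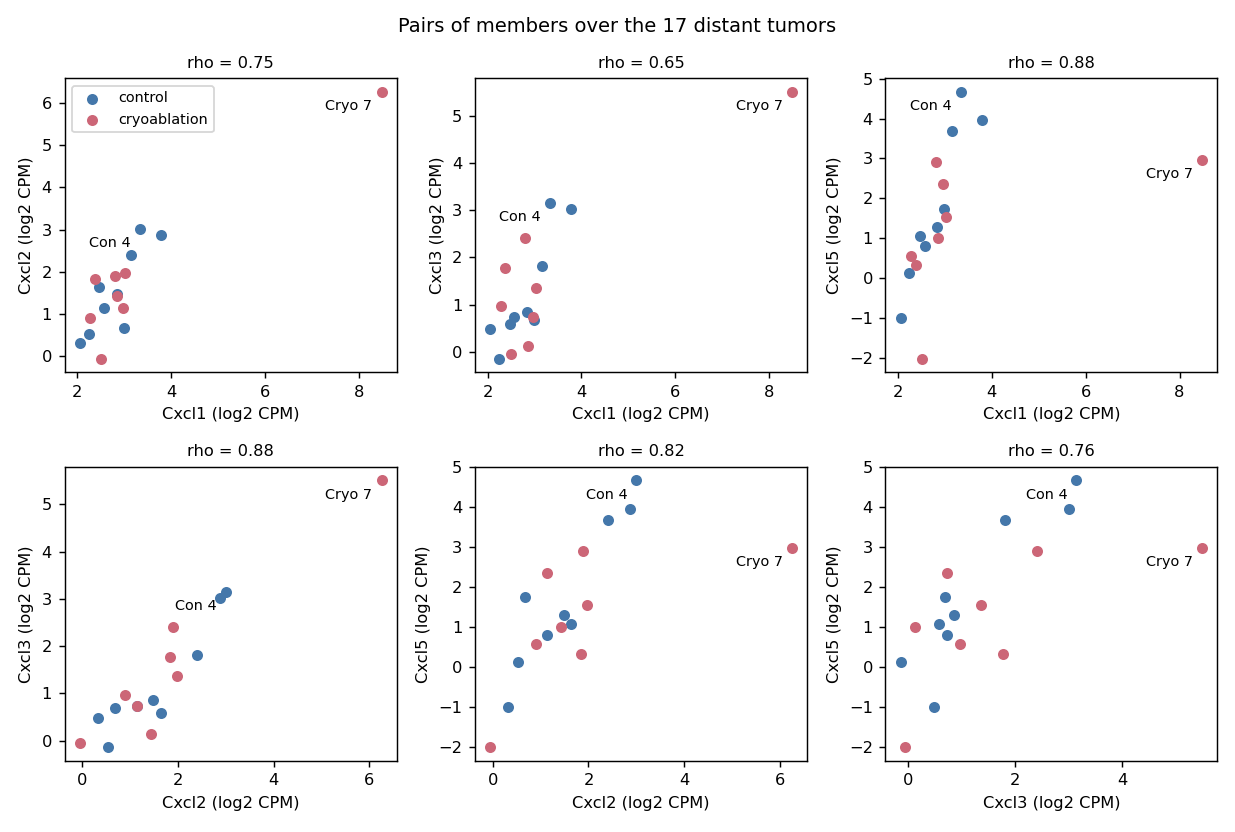
Log2 CPM of the 6 pairs of members over the 17 distant tumors (control blue, cryoablation red), 1 point per tumor, with Spearman's rho above each panel. The rho runs from 0.65 for Cxcl1 with Cxcl3 to 0.88 for Cxcl1 with Cxcl5 and Cxcl2 with Cxcl3, and Cryo 7 stands off in each panel.

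The genes whose ranks were most like each member over the 17 tumors, by Spearman's rho of log2 CPM, are named as a description with no test. For Cxcl1 they were Tnfrsf26 (0.92), Rgs16 (0.89), Btg2 (0.88), Egr2 (0.88) and Ccn1 (0.88), of which Egr2 and Ccn1 are immediate early genes. For Cxcl2 they were Hdc (0.87), the enzyme that makes histamine, Pou6f1 (0.86), Tnfrsf26 (0.84), Enah (0.81) and Mob3b (0.81). For Cxcl3 they were Hdc (0.94), Il1b (0.89), Slpi (0.88), Sod2 (0.87) and Saa3 (0.87). For Cxcl5 they were Tnfrsf26 (0.95), Sorl1 (0.95), Cxcl12 (0.93) and Steap4 (0.93). Among these, Il1b encodes interleukin-1 beta, and Cxcl12 is a chemokine of stroma that acts on another receptor. Over 0.8 were 45 genes for Cxcl1, 5 for Cxcl2, 8 for Cxcl3 and 96 for Cxcl5. Over the 9 controls alone 512 to 968 genes passed 0.8. The first 5 there were Gcnt2, Lcp1, Cyth1, Nkg7 and Irak3 for Cxcl1, and Slc7a11, Acss1, Il27, Sh2d1a and Nfe2l2 for Cxcl2. They were Itm2b, Snapc1, Slc11a1, Epsti1 and Cst7 for Cxcl3, and C1ra, Pecam1, Dram1, Sema4a and Gimap3 for Cxcl5. At a rho of 1 were 1 gene for Cxcl1, 4 for Cxcl2, 2 for Cxcl3 and 10 for Cxcl5. Ties were ordered by mean level, so the 5 named for Cxcl5 do not rank above the others of the 10.

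The receptors had few reads. Cxcr2, through which all 4 members act, had 0, 9 and 71 counts at the lowest, median and highest in the control group and 3, 9 and 57 in the cryoablation group, the 57 in Cryo 7. Ackr1, a scavenger that binds these chemokines without signaling, had 1, 9 and 55 counts against 0, 4.5 and 31. Cxcr1 had at most 2 counts in any tumor. None of the 3 passed the default filter on low counts, so they were not tested in the main analysis. Without a filter none of them passed the threshold, and counts this low limit what can be seen.

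Among the cytokines listed as inducers, interleukin-6 and interleukin-1 were also highest in Cryo 7, and TNF was not. Il6 and Csf3 are in that list but not among the inducing signals named above. Il6 had 0.359, 0.920 and 1.47 CPM at the lowest, median and highest control and 0.0965, 0.805 and 30.6 CPM in the cryoablation group, with 30.6 CPM in Cryo 7. The next cryoablation tumor was at 1.48 CPM. Il1b had 9.26, 21.3 and 59.5 CPM in the controls and reached 110 CPM in Cryo 7, and Il1a had 1.61, 3.30 and 8.76 CPM and reached 17.6 CPM. Tnf in Cryo 7 was at 6.03 CPM, within the control range of 2.02 to 17.9 CPM. Csf3, which encodes the growth factor of neutrophils, had at most 9 counts in the controls and 146 in Cryo 7. It fell below the default filter, and it passed the threshold where no filter or a mean of 10 counts was used. Il17a and Il17f, encoding cytokines that prolong the life of chemokine mRNAs, had at most 7 counts in any tumor. Of the 5 genes of that list tested, Il6 passed the threshold, with a log2 fold change of 2.30 (SE 0.87) that was -0.27 without Cryo 7.

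Of 11 receptors and adaptors for these signals, none passed the threshold and their median log2 fold change was -0.11. Cryo 7 was the highest tumor in 4 of them, among them Il6st, the shared signaling chain of the interleukin-6 family, at 259 CPM or 1.67-fold the median of the others. Il1r1, the interleukin-1 receptor, was second highest there at 69.1 CPM.

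NF-kB target genes other than the members were highest in Cryo 7 in part. Of 22 tested, 8 had Cryo 7 as the highest tumor (36.4%, against 16.8% of all genes), and their median log2 fold change between the groups was 0.01. Ptgs2, the inducible cyclooxygenase, had 11.7, 25.3 and 52.7 CPM in the controls and 252 CPM in Cryo 7. Ier3 reached 152 CPM and Nfkbiz, an NF-kB cofactor needed for part of its targets, 126 CPM, which is 4.90- and 3.39-fold the median of the others. Nfkbia was at 281 CPM, 1.99-fold. The list did not move as one, since Icam1 (12.8 CPM, 0.764-fold) and Mmp3 (7.35 CPM, 0.333-fold) lay below the median there. Lcn2, an iron-trapping protein of neutrophils and epithelium, alone passed the threshold, at 1.45 (SE 0.53), and had 0.90 without Cryo 7.

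Of 6 genes for proteins that act on chemokine mRNA, none passed the threshold. Zc3h12a, a nuclease that cuts such messages, was highest in Cryo 7 at 67.6 CPM against 28.4 to 34.1 CPM in the controls. Traf3ip2, the adaptor of the interleukin-17 receptor, was highest there at 14.7 CPM. Zfp36, which encodes tristetraprolin and was listed with the NF-kB targets instead, was the third highest in Cryo 7 at 39.7 CPM.

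CXC chemokines for other receptors were not highest in Cryo 7. Of the 6 tested 0 had their highest level there and none passed the threshold, with a median log2 fold change of -0.27. Cxcl9 and Cxcl10, which attract T cells after interferon, were at 148 and 136 CPM there, against control medians of 311 and 158 CPM, and Cxcl9 was the lowest of the 17 tumors. Cxcl12 was at 34.0 CPM against a control median of 41.4 CPM. The platelet chemokine Pf4 was at 38.9 CPM, between 25.5 and 140 CPM in the controls. Ppbp, a platelet chemokine that also binds Cxcr2 and fell below the filter, had 30 counts in Cryo 7, 7.34-fold the median of the others and second to the 59 of Con 4.

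Over the lists of receptors, inducers and their receptors, NF-kB targets, mRNA decay, other CXC and platelet chemokines and neutrophil genes together, 67 genes were tested and 4 passed the threshold, all higher in the cryoablation group (5.97%, against 0.492% of all genes). They were Il6, Lcn2, S100a8 and S100a9. The lists were drawn up around the members with earlier results known, and the count is not independent of them. Without Cryo 7 none of these 4 passed and 1 other gene did, Ltf. Without Con 4 and Cryo 7, Lcn2 and S100a8 passed, at 1.08 and 1.27. The median log2 fold change of the 67 was -0.06. Cryo 7 was highest in 21 of them (31.3%).

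Across the whole table, the 15 genes other than the members with the widest gap between Cryo 7 and the next tumor, among those with a mean of at least 10 counts, are a description of that tumor. In order of the gap they were Il6, Csf3, Ptgs2, Ereg, Ccl3, Ier3, Nfkbiz, Lcn2, Lif, Cp, Il1a, S100a9, Zc3h12a, Il1b and Prokr1. The gap fell from 4.25 on the log2 scale for Il6 and 3.65 for Csf3 to 0.86 for Prokr1, against 4.70 for Cxcl1. Ereg, a ligand of the EGF receptor, was at 13.3 CPM, 5.57-fold the median of the others. Ccl3, a chemokine of macrophages and neutrophils, was at 33.6 CPM or 7.53-fold, and Lif, a cytokine that signals through Il6st, at 41.7 CPM or 3.45-fold. Of the 14 that were tested, 3 passed the threshold between the groups (Il6, Lcn2 and S100a9). The exact NF-kB site of the member promoters was in 0 of the 12 promoters available for these genes, and the wider consensus was in 3 of 12 (Il6, Ier3 and Lif), against 9.55% of 27025 genes. Their 3' untranslated regions held a median of 2.95 copies of ATTTA per kilobase, against 1.35 over all genes.

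**Figure D4:**
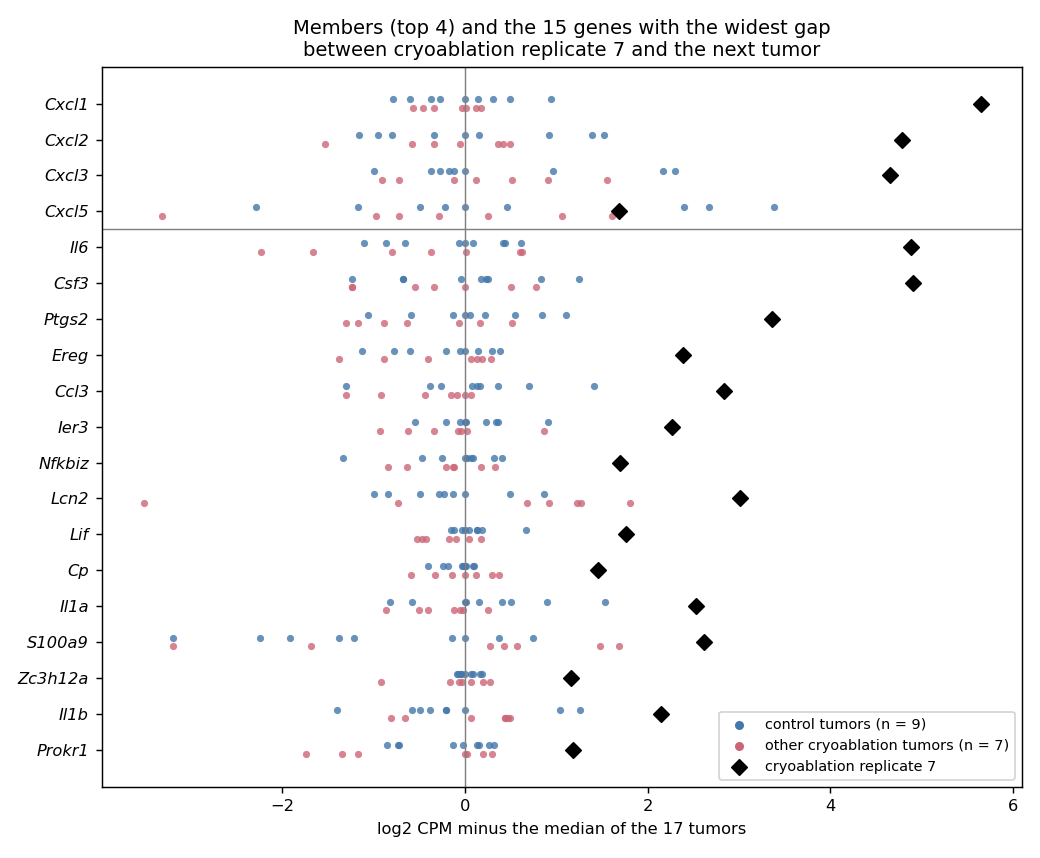
Log2 CPM minus the median of the 17 tumors for the 4 members (top) and the 15 other genes with the widest gap between Cryo 7 and the next tumor. Blue points are control tumors (n = 9), red points the other cryoablation tumors (n = 7) and black diamonds Cryo 7. The diamond stands outside the other tumors for Cxcl1, Cxcl2, Cxcl3 and the 15 genes, and inside them for Cxcl5.

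Neutrophil markers were followed as the cells that the members attract. The summed level of 25 neutrophil genes ranged from 118 to 497 CPM in the control group (median 168) and from 123 to 248 CPM in the cryoablation group (median 201). Cryo 7 was the highest of its group at 248 CPM and the third of the 17 tumors, after Con 4 and Con 3. Among the defining genes, Ly6g had at most 2 counts and Mpo at most 4 counts in any tumor. A part of the sum, such as Mmp9, Clec4d and Acod1, is also made by macrophages. S100a8 and S100a9, the subunits of calprotectin, passed the threshold at 1.34 (SE 0.53) and 1.61 (SE 0.65), and had 1.04 and 1.11 without Cryo 7, when neither passed. Csf3r, the receptor of the neutrophil growth factor, had -0.51 (SE 0.42). Of the 16 neutrophil genes tested, S100a8 and S100a9 alone passed. The median log2 fold change of the 16 was -1.6e-05, and 8 of them lay above 0. limma voom gave 0.52 for S100a8 and 0.22 for S100a9.

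In the controls the members rose and fell with the neutrophil sum, and most of them with the endothelial sum too. Over the 9 control tumors rho was 0.90 for Cxcl1, 0.97 for Cxcl2, 0.92 for Cxcl3 and 0.95 for Cxcl5, with r of 0.83, 0.92, 0.94 and 0.93 (adjusted permutation p of rho from 0.0021 to 0.0075). With the endothelial sum rho in the same tumors was 0.87 for Cxcl1, 0.83 for Cxcl3 and 0.87 for Cxcl5 (adjusted permutation p = 0.0107, 0.0165 and 0.0107) and 0.63 for Cxcl2 (adjusted permutation p = 0.11), so the relation was not particular to neutrophil genes. Within the 8 cryoablation tumors rho with the neutrophil sum was 0.24, 0.48, 0.67 and 0.40, and no adjusted permutation p was under 0.27. Whether the relation differed between the groups was not tested. Over all 17 tumors rho was 0.68, 0.85, 0.85 and 0.75 (adjusted permutation p = 0.0107, 0.0005, 0.0003 and 0.003) and r was 0.37, 0.64, 0.69 and 0.84 (adjusted permutation p = 0.231, 0.0394, 0.016 and 0.0003). Without Con 1 and Con 4, the tumors farthest from the median sum, r was 0.45, 0.67, 0.71 and 0.77 and rho 0.54, 0.79, 0.81 and 0.64. For Cxcl1 neither value then passed (adjusted permutation p = 0.299 for r and 0.0957 for rho). Without Cryo 7 its r was 0.72 and rho 0.62 (adjusted permutation p = 0.0051 and 0.0246), and without Con 4 and Cryo 7 they were 0.72 and 0.54 (adjusted permutation p = 0.0078 and 0.0767). Hdc and Il1r2 are in the sum and cells other than neutrophils also express them, and the part of cell mixture in these relations was not tested.

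**Figure D5:**
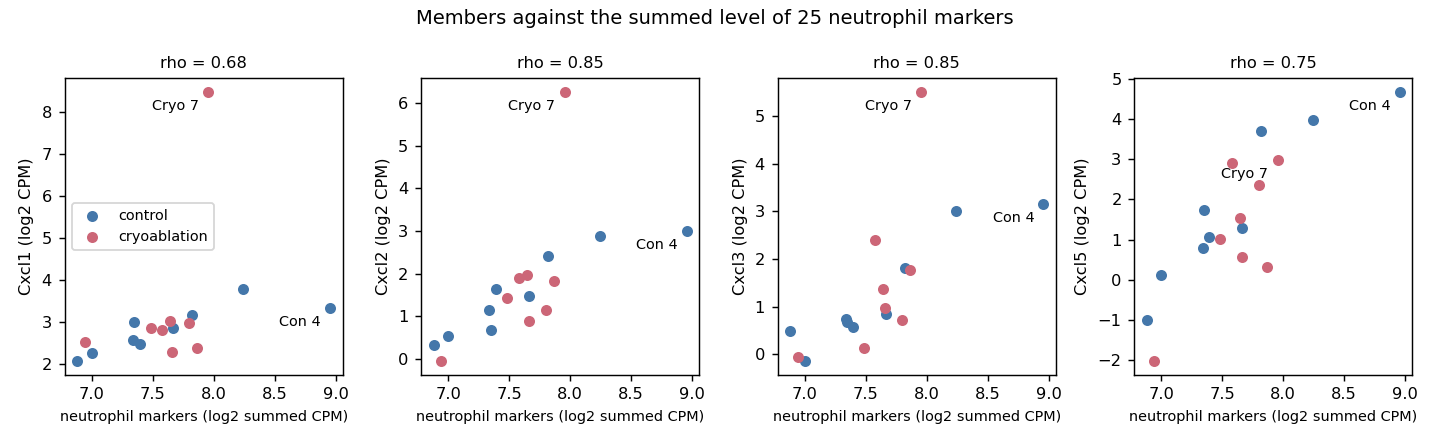
Log2 CPM of each member against the log2 of the summed CPM of 25 neutrophil genes, 1 point per distant tumor (control blue, cryoablation red), with Spearman's rho over the 17 tumors above each panel. The controls rise along both axes, and Cryo 7 lies above them for Cxcl1, Cxcl2 and Cxcl3 and among them for Cxcl5.

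Markers of other cell types were read in the same tumor. The sum of 12 macrophage genes was lowest in Cryo 7 of all 17 tumors, at 1389 CPM against 2102 to 5461 CPM in the controls. Of these genes, 9 had their lowest level there, where 9.74% of all genes did. Lyz2 was at 615 CPM and C1qa at 148 CPM, against control medians of 1798 and 419 CPM. Fibroblast genes summed to 8339 CPM in Cryo 7, the 14th highest, within the control range of 7867 to 14055 CPM. Endothelial genes summed to 162 CPM, against 152 to 324 CPM, and epidermal genes to 222 CPM, against 187 to 451 CPM, with 8 of 13 at 0. Colon epithelium genes summed to 10.4 CPM, the lowest of the 17 tumors, and 4 of the 9 were at 0 there, among them Krt8 and Krt18. Platelet genes summed to 12.8 CPM, against 8.35 to 15.7 CPM, mast cell genes to 9.94 CPM, against 7.02 to 64.4 CPM, muscle genes to 19.4 CPM, against 3.04 to 156 CPM, and adipocyte genes to 33.9 CPM, against 26.6 to 174 CPM. The part of these markers in the level of the members was not tested.

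The members were also set against the other sums. None of the 8 relations with the macrophage and fibroblast sums had an adjusted permutation p under 0.05 over the 17 tumors. Without Cryo 7 the macrophage sum went with Cxcl3 by rank (rho = 0.59, adjusted permutation p = 0.0331) but not by value (r = 0.47, 0.107). Within the cryoablation group r of the macrophage sum with Cxcl1 was -0.78 and rho -0.79 (adjusted permutation p = 0.0461 and 0.27). That r was 0.30 in the controls and -0.12 over all tumors but Cryo 7. The endothelial sum went with Cxcl5 (r = 0.59, adjusted permutation p = 0.0394; rho = 0.53, 0.0657), and without Con 3 and Con 4, the tumors farthest from the median sum, r was 0.29 (adjusted permutation p = 0.479). Without Cryo 7 r with Cxcl5 was 0.70 and rho 0.67 (adjusted permutation p = 0.0064 and 0.0142). For Cxcl1, Cxcl2 and Cxcl3 r was then 0.69, 0.59 and 0.78 (adjusted permutation p = 0.0074, 0.0263 and 0.0013). The relation was thus not particular to Cxcl5. Without Con 4 and Cryo 7 r with the 4 members was 0.64, 0.45, 0.69 and 0.59 (adjusted permutation p = 0.0241, 0.159, 0.0103 and 0.0373). The epidermal sum was lower where Cxcl1 was higher by rank (rho = -0.67, adjusted permutation p = 0.0107) but not by value (r = -0.39, 0.185). Without Cryo 2 and Cryo 5 these were -0.59 (adjusted permutation p = 0.0572) and -0.35. Without Cryo 7 rho was -0.66 and r -0.64 (adjusted permutation p = 0.0153 and 0.0129), so the lack of a relation by value rested on Cryo 7. Without Con 4 and Cryo 7 rho was -0.59 and r -0.60 (adjusted permutation p = 0.0561 and 0.037). Of the 26 relations, 9 passed by r and 11 by rho.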

How the data were processed

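A table of 21931 genes by 17 tumors held what the authors deposited, a read count that is not normalized and an FPKM. The deposited FPKM were recomputed from count, length and total, and matched within 1% for 260739 of 260739 values above 0, and were not used further. mRNA was taken up on magnetic beads and sequenced on a NovaSeq platform. The aligner, counting program and strandedness are not given in the sources used here. Groups follow the labels, and the paper's text gives the sizes of the groups the other way round. The submitters' processing notes name the builds GRCm38 and mm10. Columns left without a label numbered 0, and symbols that occur more than once numbered 22. No tumor was a duplicate of another.

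Counts were analysed with edgeR 4.0.16 in R 4.3.3 (TMM, the default filter on low counts, and a quasi-likelihood F test without covariates), with Benjamini-Hochberg adjustment over 13005 genes. Dividing the log2 fold change by the root of F gave its standard error. Log2 CPM had a prior count of 2. Correlations were tested with 100000 permutations, or exactly over every order within a group where that was feasible, in Python 3.11.15 with scipy 1.17.1, and adjusted over 26 relations. Levels of member pairs were compared by an exact sign-flip test. Promoters came from RefSeq (GRCm38.p6, 3 of 4 members matched) and 3' untranslated regions from GENCODE M21 (4 of 4 matched).

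The alternatives were DESeq2 1.42.0 with and without replacement of outlier counts, limma 3.58.1 voom with quality weights, edgeR's robust and exact tests, upper-quartile and RLE normalization, a replicate block, no filter, a filter at a mean of 10 counts, leaving out each tumor, and, for correlations, a prior count of 0.5, CPM of the total and variance-stabilized values. The setting without Con 4 and Cryo 7 and the GENCODE lengths were added after the data were seen. The genes named are the members, those of the gene lists, for each member the 5 most alike genes (1 of them is not reported here), and the 15 genes with the widest gap in Cryo 7 among those with a mean of at least 10 counts. The members and lists were chosen with earlier results of these data known. The tests were checked on simulated counts. Counting error alone sets the level given for 3 counts.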

Additional observations from a re-analysis of the deposited data

Results flagged for a closer look

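Genes whose highest or lowest tumor stands apart within a group were looked for in log2 CPM by Dixon's ratio, the gap to the nearest tumor divided by the range of the group. The 4 members, the 15 genes with the widest gap in Cryo 7 and S100a8, 20 genes in all, were looked at in both groups, and 15 of the 40 ratios passed. About 1 in 20 passes by chance, and most of these genes were chosen for their level in Cryo 7, so the count is a description.

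In the cryoablation group Cryo 7 was the tumor that stood apart above the others in 13 genes. Among the members the ratio was 0.880 for Cxcl1, 0.679 for Cxcl2 and 0.558 for Cxcl3, and it did not pass for Cxcl5. Among the cytokines it was 0.692 for Lif, 0.671 for Csf3, 0.669 for Ccl3, 0.669 for Il1a, 0.599 for Il6 and 0.559 for Il1b. It was 0.611 for Ptgs2, 0.560 for the growth factor Ereg, 0.538 for Nfkbiz and 0.527 for Cp, which encodes ceruloplasmin. In the control group Con 3 was highest for Lif (0.591) and Con 1 lowest for Nfkbiz (0.499). No member stood apart in a control tumor by this measure.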

How the results depend on the processing

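The count of genes past the threshold, 64 in the main analysis, was 432 without a filter on low counts and 33 with the replicate block, and leaving out 1 tumor gave 34 (without Cryo 5) to 165 (without Cryo 3), with 106 without Cryo 7 and 99 without Con 4 and Cryo 7. The adjusted count was 0 in every setting. The split of the 64 genes, 46 higher and 18 lower in the cryoablation group, depended on the setting. It was 52 higher and 22 lower with DESeq2's replacement, and 42 and 4 without Con 4. More were lower than higher with limma voom (10 higher, 69 lower), the replicate block (13 and 20) and without Cryo 4 (15 and 28). Of the listed pathway genes, 4 passed in the main analysis, 8 without a filter and 2 with the replicate block. With limma voom 1 passed, Cxcl12, which is not among the 4 of the main analysis. Without Con 4 and Cryo 7, 2 passed (Lcn2 and S100a8), and 1 to 6 did when 1 tumor was left out. Leaving out 1 tumor moved Cxcl1 between -0.22 and 2.93, Cxcl2 between -0.47 and 1.96, Cxcl3 between -0.48 and 1.63 and Cxcl5 between -1.36 and -0.52, with the lowest value of each without Cryo 7 and the highest of Cxcl5 without Con 4. With DESeq2's replacement of outlier counts, which changed the counts of Cryo 7, the folds were -0.19 for Cxcl1, -0.43 for Cxcl2, -0.45 for Cxcl3 and -0.23 for Il6. With limma voom they were 0.29 for Cxcl1, -0.10 for Cxcl2, -0.50 for Il6, -0.33 for Lcn2, 0.52 for S100a8 and 0.22 for S100a9. Without Con 4 and Cryo 7 they were -0.16 for Cxcl1, -0.24 for Cxcl2 and -0.19 for Il6. Leaving out 1 tumor moved Il6 between -0.27 (without Cryo 7) and 2.49. Without Con 1, 2, 5, 6, 8 or 9 the p of Cxcl2 missed the threshold while its fold stayed at 1.61 to 1.69, and Cxcl1 missed it only without Cryo 7 among the tumors left out singly. Replicate numbers did not pair the tumors, since the correlations of same-numbered tumors ran from -0.51 to 0.64 and 2 of 8 were best with their own number. With the replicate block Cxcl1 had 0.31. Of the 26 relations, 9 passed by r and 11 by rho, against 2 and 0 within the cryoablation group, 14 by r without Con 4 and Cryo 7, and 6 to 15 by r and 11 to 15 by rho when 1 tumor was left out. The r of the endothelial sum with Cxcl1, -0.07 over 17 tumors, was 0.85 within the controls and 0.64 without Con 4 and Cryo 7, and leaving out 1 tumor moved it between -0.14 and 0.69, the latter without Cryo 7. The cause was not tested for the other changes. Depth limited the receptors, Csf3 and the interleukin-17 genes, which fell below the default filter, and of these Csf3 passed the threshold without a filter and with a filter at a mean of 10 counts.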
